A study of Mus musculus with 15 samples.

Results

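Genes of fatty acid oxidation, fatty acid synthesis and desaturation, fatty acid uptake, and lipid droplet storage and lipolysis were followed in mouse cumulus cells, the granulosa-derived cells attached to the oocyte inside the follicle. A list of 48 genes was used, with 20 genes of oxidation, 11 of synthesis and desaturation, 7 of uptake and activation, and 10 of storage and lipolysis. By gene symbol, 47 of them were found in the authors' table of 20855 probes, and the remaining gene, Eci1, was found under its older symbol Dci. The 48 genes had 63 probes, of which 59 were valid, meaning that the scanner software called them well above background on 4 or 5 arrays at NC1, at C1 and at C2 alike. These 59 probes covered 46 genes, among 17322 valid probes on the array. Plin1 and Plin5 had no valid probe and are described apart.

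The cells came from B6CBAF1/J mice and from 3 stages, with 5 pools of several mice at each stage. NC1 cells came from 3-week-old juveniles and surrounded prophase I oocytes described in the labels as developmentally incompetent. C1 cells came from 8-week-old adults and surrounded competent prophase I oocytes. No hormone treatment is described for these stages in the methods. C2 cells came from 8-week-old adults superovulated with PMSG and hCG, and surrounded competent metaphase II oocytes collected from the oviduct. Per the labels, oocytes of NC1 and C1 were removed by pipetting, and C2 complexes were dispersed with hyaluronidase. The step from NC1 to C1 is therefore tied to age, and the step from C1 to C2 to hormones, site of collection and enzyme, and these cannot be told apart. As the cells were measured in bulk, fewer cells of a type and less RNA per cell cannot be told apart either.

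Mitochondria burn fatty acids by beta-oxidation. Long chains are activated to acyl-CoA, carried across the inner membrane as acylcarnitines, and shortened in repeated cycles by dehydrogenases, hydratases and thiolases. Synthesis runs in the cytosol from citrate through acetyl-CoA and malonyl-CoA to palmitate, which is then elongated and desaturated in the endoplasmic reticulum. Surplus fatty acids are esterified to triacylglycerol and kept in lipid droplets, whose surface is coated by perilipins and from which lipases release them. In cumulus-oocyte complexes, beta-oxidation is known to accompany the resumption of meiosis.

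Levels are log2 intensities of the brightest valid probe of a gene, with 0 set at the median of the valid probes of the same array. Levels of different probes cannot be compared with each other, so values of single genes below compare stages of 1 probe. The marker sums given next add linear levels of several probes, are carried by the brightest of them, and are compared only between arrays. A gene is called changed where limma gave an adjusted p under 0.01 over all 17322 valid probes.

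Markers of the labelled cells were detected at all 3 stages, though most were lower at C2. The 6 granulosa and cumulus markers (Amh, Amhr2, Fshr, Foxl2, Inha and Nr5a2) were all valid, and 5 of them were lower at C2 than at C1. Between 18374 and 24499 gene probes were well above background per array, with no saturated gene spot. Summed linear levels of marker lists, in units of the array median, also moved with stage. That of the granulosa and cumulus list was 180 to 240 at NC1, 191 to 236 at C1 and 40.3 to 51.5 at C2. The sum of 5 theca and stroma markers was 10.49 to 49.9 at NC1, 9.15 to 15.3 at C1 and 0.473 to 0.711 at C2. The sum of 8 oocyte markers was 12.03 to 47.6 at NC1 and 12.4 to 38.0 at C1. At C2 it was 12.4 to 14.7 in replicates 1 to 3 and 0.632 to 0.734 in replicates 4 and 5. In replicates 1 to 3 of C2 it was carried by Gdf9 and H1foo. Zp1, Zp2, Zp3, Nlrp5 and Npm2 were lower on all C2 arrays than on all C1 arrays. The sum of 6 red blood cell marker probes was 73.5 to 439 at NC1, at most 43.5 at C1 and at most 25.3 at C2. The sum of 7 luteal markers was 93.4 to 141 at NC1, 156 to 205 at C1 and 271 to 368 at C2. Hsd3b1, the brightest of them at NC1 and C1, was nearly level there, with log2 means of 6.84 and 6.96. C1 minus NC1 was 7.24 for Sfrp4, 5.59 for Akr1c18 and 5.46 for Cyp11a1 (limma adjusted p = 2.11e-10, 2.96e-06 and 3.24e-09). Star, Lhcgr and Ptgfr had no valid probe. They were well above background on 2, 0 and 0 of 5 arrays at NC1 and on all 5 at C1. The luteal markers did not move together from C1 to C2. On the log2 scale the mean went from 1.92 to 7.08 for Akr1c18, 4.32 to 5.20 for Cyp11a1 and 4.30 to 4.79 for Sfrp4. It fell from 0.92 to -0.13 for Star, -1.13 to -3.96 for Lhcgr and 0.47 to -1.20 for Ptgfr, and Hsd3b1 was at 6.96 and 6.74. The 7 adipocyte markers, the cell type in which perilipins are best known, summed to 0.692 to 2.04, 0.762 to 2.30 and 0.662 to 2.64, and Lep, Cidec and Adrb3 were not well above background on any array. Over the 3 stages the sums of 6 macrophage and leukocyte markers (3.04 to 6.05, 3.83 to 5.09 and 4.00 to 6.13) overlapped, but among them Cd14 was higher at C2 than at C1, by 1.22 (adjusted p = 0.000681), and Csf1r was higher at C2 than at NC1, by 1.23 (adjusted p = 0.000596). The sums of 4 oviduct epithelium markers were 0.515 to 2.13, 0.572 to 2.57 and 0.969 to 8.71. Among them Ovgp1 had 2.28 (adjusted p = 0.0343) between C2 and C1, which did not pass. Between C2 and NC1 Ovgp1 was called higher, by 3.32 (adjusted p = 0.00347), with arrays that overlapped. Epcam and Tppp3 were called lower at C2 than at C1, with -1.05 (adjusted p = 0.000933) and -1.01 (adjusted p = 0.00244). Between C2 and NC1 they had -0.67 (adjusted p = 0.0183) and -0.73 (adjusted p = 0.0186). The part of these other cell types in the lipid gene results was not tested.

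The plot of all 48 genes by array shows the pattern as a whole. A few genes stepped up in adults, and more of them moved after ovulation, in both directions. Over the 3 stages the limma F-test called 32 of 46 genes, or 69.6%, where 51.6% of all valid probes were called.

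**Figure D1:**
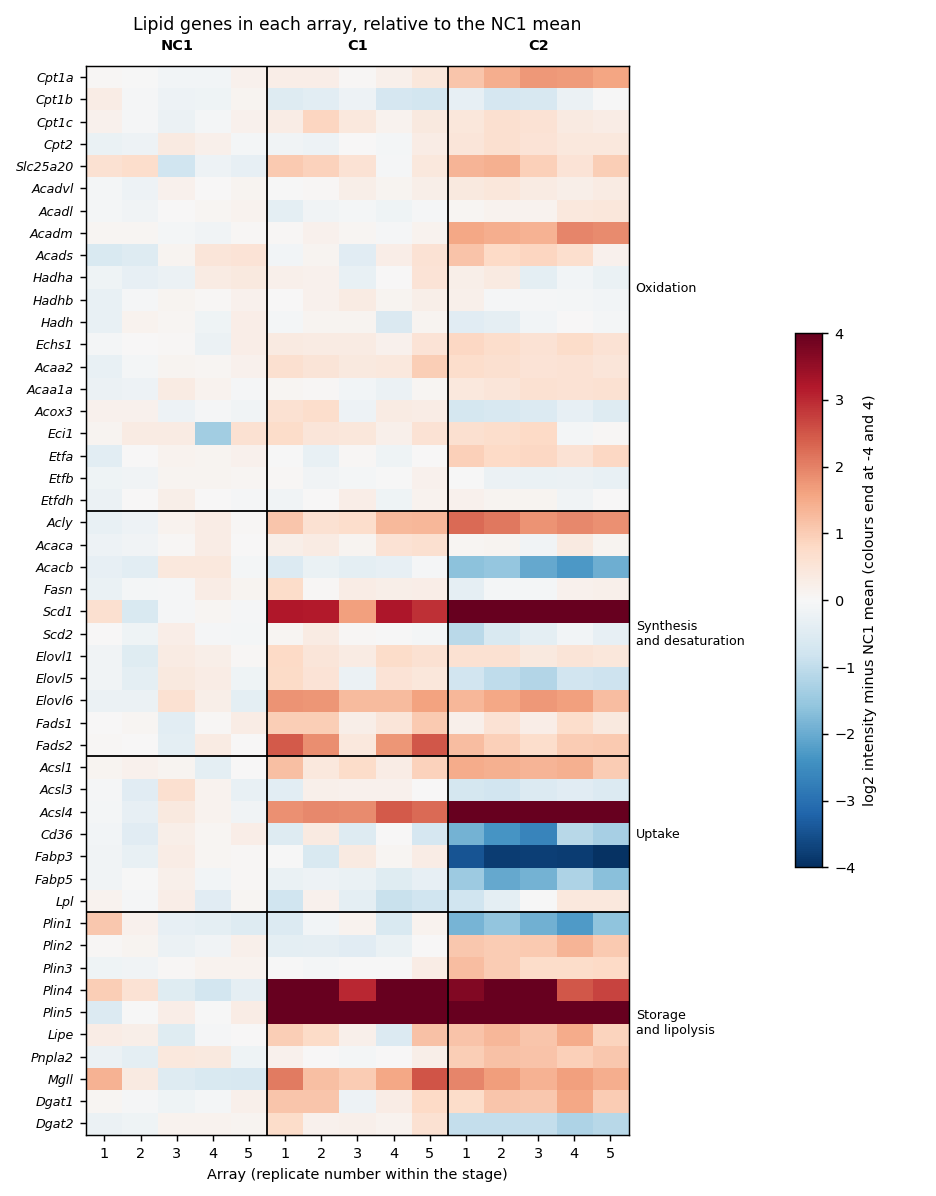
Heatmap of the 48 lipid genes (rows, by branch) in the 15 arrays (columns, by stage and replicate), coloured by log2 intensity minus the NC1 mean of the same probe, with colours ending at -4 and 4. Acly, Scd1, Acsl4, Plin4 and Plin5 are red at both C1 and C2, and Fabp3, Cd36 and Acacb are a deeper blue at C2 than at C1.

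The first comparison asked which lipid genes differed between adult and juvenile cumulus cells around prophase I oocytes. Adults had higher expression of 8 genes and lower expression of none. These were the desaturases Scd1 and Fads2, the elongase Elovl6, the citrate-cleaving enzyme Acly, the acyl-CoA synthetase Acsl4, the perilipin Plin4, the monoacylglycerol lipase Mgll and the mitochondrial thiolase Acaa2. The 8 of 46 genes make 17.4%, against 2.52% of all valid probes called in either direction and 1.75% called higher. Only 5 genes were called with the median over all gene probes as the scale and with the authors' table. With quantile normalization 1 gene was also called lower, Cpt1b, the carnitine palmitoyltransferase of muscle, which had -0.51 (SE 0.15, adjusted p = 0.0579) in the reported scale. Arrays of the stages did not overlap for 11 of the 46 genes, against 5.98% of all valid probes. Those were 9 higher genes, namely the called ones other than Mgll together with Elovl1 and Acsl1, and 2 lower ones, Cpt1b and Fabp5. By branch, 4 of 11 synthesis genes, 1 of 7 uptake genes, 2 of 8 storage genes and 1 of 20 oxidation genes were called. The median difference over the 46 genes was 0.21 on the log2 scale, against -0.03 over all valid probes. By branch it was 0.59 for synthesis, 0.44 for storage, 0.10 for oxidation and 0.02 for uptake.

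Scd1 makes oleate and palmitoleate by placing the first double bond in saturated chains. Its level in replicates 1 to 5 was -3.10, -4.34, -3.78, -3.66 and -3.79 at NC1, -0.53, -0.57, -2.11, -0.50 and -0.81 at C1, and 0.89, 0.63, 0.47, 1.28 and 1.13 at C2. Every adult array lay above every juvenile one and every ovulated array above every adult one, with C1 replicate 3 low among the adults. The C1 mean was 7.12-fold above the NC1 mean, a log2 difference of 2.83 (SE 0.29, adjusted p = 1.04e-05). The second step added 1.78 (SE 0.29, adjusted p = 5.1e-05), and over both steps C2 was 24.5-fold above NC1, a log2 difference of 4.61. With normexp background correction the first step was 1.89 and the span over both 3.47. At NC1 the probe was well above background in 4 of 5 arrays, so it started close to the limit of detection. Scd2, a second stearoyl-CoA desaturase, differed by 0.07 (SE 0.15, adjusted p = 0.884) between C1 and NC1 and by -0.58 (SE 0.15, adjusted p = 0.00388) between C2 and C1.

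Fads2 is the delta-6 desaturase that starts the making of long polyunsaturated fatty acids. Its level was -2.44, -2.46, -2.88, -2.17 and -2.48 at NC1, -0.04, -0.64, -2.07, -0.73 and -0.01 at C1, and -1.27, -1.53, -1.78, -1.45 and -1.45 at C2. All C1 arrays were above all NC1 arrays, but they spread widely, and C1 replicate 3 was close to the juvenile values. The difference was 1.79 (SE 0.29, adjusted p = 0.00104), and a second Fads2 probe gave 1.45 with an adjusted p of 0.000365. Between C1 and C2 it was -0.80 (SE 0.29, adjusted p = 0.026), which did not pass. Its neighbour in the pathway, the delta-5 desaturase Fads1, had 0.75 (SE 0.17, adjusted p = 0.0153) between C1 and NC1.

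Elovl6 lengthens palmitate to stearate, the substrate of Scd1. Its level was 0.74, 0.73, 1.57, 1.20 and 0.59 at NC1, 2.75, 2.72, 2.24, 2.24 and 2.56 at C1, and 2.28, 2.50, 2.70, 2.59 and 2.20 at C2. The C1 and NC1 arrays did not overlap, whereas C2 arrays fell within the C1 range or just beside it. The difference was 1.54 (SE 0.18, adjusted p = 4.64e-05) for the first step and -0.05 (SE 0.18, adjusted p = 0.835) for the second, with a 95% interval of -0.43 to 0.34 for the latter. Of the other elongases, Elovl1 differed by 0.59 (SE 0.14, adjusted p = 0.0193) between C1 and NC1 with no overlap of arrays, and Elovl5 by 0.42 (SE 0.18, adjusted p = 0.252).

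Acly turns cytosolic citrate into the acetyl-CoA used for synthesis. Its level was 3.34, 3.45, 3.80, 3.94 and 3.69 at NC1, 4.74, 4.26, 4.34, 4.93 and 4.98 at C1, and 5.91, 5.75, 5.45, 5.58 and 5.49 at C2. It rose by about the same amount at each step, with no overlap of arrays at either. The first step was 1.01 (SE 0.16, adjusted p = 0.000874) and the second 0.99 (SE 0.16, adjusted p = 5.66e-05), which made C2 3.98-fold higher than NC1. The call of the first step was lost with the median over all gene probes as the scale, with spike-in scaling and with the authors' table, with adjusted p up to 0.0739. The next enzymes of the pathway passed in neither step. The acetyl-CoA carboxylase Acaca had 0.38 (SE 0.13, adjusted p = 0.122) and -0.27 (SE 0.13, adjusted p = 0.0816) for the successive steps. Fatty acid synthase, Fasn, had 0.32 (SE 0.15, adjusted p = 0.285) and -0.34 (SE 0.15, adjusted p = 0.0546), and its stage means of -2.87 ± 0.21, -2.55 ± 0.25 and -2.90 ± 0.24 (SD, n = 5) came from arrays that overlapped between all stages.

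Acsl4 activates fatty acids to acyl-CoA with a preference for arachidonate. Its level was 1.08, 0.83, 1.53, 1.29 and 1.00 at NC1, 2.97, 3.06, 3.03, 3.59 and 3.42 at C1, and 5.69, 5.57, 5.50, 5.49 and 5.54 at C2. The 3 stages were fully separated and the C2 arrays were nearly alike. The first step was 2.07 (SE 0.14, adjusted p = 1.51e-07) and the second 2.34 (SE 0.14, adjusted p = 9.25e-10). Over both steps the intensity was 21.3-fold higher. The other acyl-CoA synthetases took different courses. Acsl1, used mainly for oxidation and storage, had 0.71 (SE 0.17, adjusted p = 0.0169) in the first step, which did not pass, with no overlap of arrays. Acsl3, found on nascent lipid droplets, had 0.03 (SE 0.18, adjusted p = 0.969).

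Plin4 coats small lipid droplets in fat and muscle. Its level was -1.70, -2.12, -3.18, -3.44 and -3.04 at NC1, 3.56, 3.84, 0.33, 2.31 and 3.34 at C1, and 1.00, 1.28, 1.38, -0.21 and 0.01 at C2. The lowest adult array, replicate 3, was still above the highest juvenile array, and C2 arrays lay between the NC1 and C1 ranges or in the lower part of the latter. The first step was 5.37 (SE 0.56, adjusted p = 1.52e-05), a 41.4-fold difference. The second step was -1.99 (SE 0.56, adjusted p = 0.00624). That fall lost its call without C1 replicate 1, 2 or 5 or C2 replicate 4 or 5, with the median over all gene probes as the scale, with the authors' table, with no filter on dim probes and with only the 2 stages fitted, with adjusted p up to 0.0212. Without C1 replicate 3 it was -2.57, and on 1 of the 4 slides C2 was higher than C1.

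Plin5, which couples droplets to mitochondria in oxidative tissues, lies next to Plin4 on chromosome 17 with no other protein-coding gene between. It was well above background in 3 of 5 arrays at NC1, 5 at C1 and 5 at C2, and was therefore outside the fit. Its level was -4.57, -4.03, -3.75, -4.06 and -3.73 at NC1, 2.55, 2.24, 1.13, 0.28 and 2.32 at C1, and 2.38, 2.22, 1.83, 0.63 and 0.60 at C2. All adult and ovulated arrays were above all juvenile ones, and C1 and C2 overlapped. A further fit took probes present in at least 1 stage, a setting added after seeing the data. Plin5 entered it only through C1 and C2, where it was high. Its C1 minus NC1 of 5.73 (SE 0.44) is therefore a description only. C2 minus C1 was -0.17 (adjusted p = 0.759). As the NC1 values were near background, the size of the first difference is uncertain.

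Mgll splits monoacylglycerol in the last step of lipolysis. Its level was -2.0, -3.04, -3.92, -4.03 and -4.04 at NC1, -1.32, -2.19, -2.38, -1.86 and -0.91 at C1, and -1.47, -1.74, -2.01, -1.78 and -1.94 at C2. The stages overlapped, because NC1 replicate 1 was as high as the lower adult arrays. The difference was 1.67 (SE 0.35, adjusted p = 0.00905), and a second Mgll probe gave 1.41 with an adjusted p of 0.0751. The call was lost in 21 of 28 alternatives, among them the omission of any single array other than NC1 replicate 1 or C1 replicate 3, with adjusted p up to 0.0376.

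Acaa2 is the thiolase of the last step of mitochondrial beta-oxidation. Its level was 2.67, 2.88, 3.09, 3.05 and 3.15 at NC1, 3.61, 3.49, 3.37, 3.39 and 3.95 at C1, and 3.68, 3.61, 3.53, 3.54 and 3.44 at C2. All adult arrays were above all juvenile ones, by a small margin. The difference was 0.59 (SE 0.12, adjusted p = 0.00757), and the second step was 0.00 (SE 0.12, adjusted p = 0.991). This call was lost in 19 of 28 alternatives, with adjusted p up to 0.392, among them the omission of NC1 replicate 1, 2, 3 or 4, C1 replicate 1, 2 or 5, or C2 replicate 2, 3, 4 or 5.

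**Figure D2:**
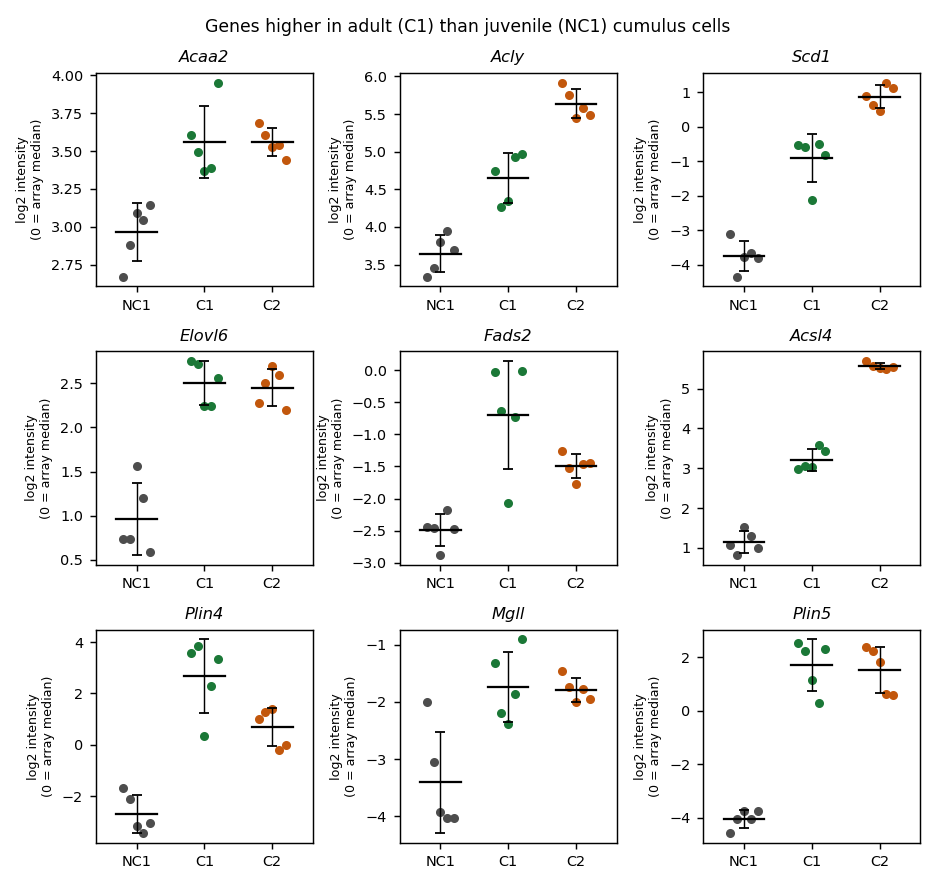
Log2 intensity (0 = array median) of the 8 genes called higher at C1 than at NC1, and of Plin5, in each of the 5 arrays per stage, where points are arrays, horizontal lines the means and error bars 1 SD. The C1 points lie above all NC1 points for every gene shown other than Mgll. C1 replicate 3, the middle C1 point, is the lowest C1 point for Scd1, Fads2, Plin4 and Mgll and, by a narrow margin, for Elovl6 and Acaa2.

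Replicate 3 stood low among the adult arrays for a set of genes. For Scd1 it was -2.11 where the other adults were -0.81 to -0.50, for Fads2 -2.07, for Plin4 0.33, for Mgll -2.38 and for Dgat1 -0.63. It was also the lowest adult array for Elovl6 and Acaa2, by a narrow margin. For 6 of the 7 luteal markers the same array was the lowest of the adults, whereas for the remaining one, Hsd3b1, it was the second highest. Cyp11a1, the cholesterol side-chain cleavage enzyme, was 4.71, 4.39, 3.49, 3.99 and 5.00 in C1 replicates 1 to 5, against -0.64, -1.79, -0.96, -1.24 and -1.08 at NC1. Star, the cholesterol carrier of mitochondria, was 2.27, 0.74, -0.99, 1.40 and 1.17 and Akr1c18, which degrades progesterone, was 1.96, 1.44, 0.49, 1.30 and 4.41 in the same 5 arrays. Without it, the first step was 3.13 for Scd1, 2.13 for Fads2 and 5.96 for Plin4, and 9 genes were called in place of 8. In the juvenile group, replicates 1 and 2 had the highest Plin1, Plin4 and Mgll levels and also the highest theca and stroma sums, 49.9 and 32.4 against at most 14.6 in the other juvenile arrays. The same 2 arrays had the highest oocyte sums, 47.6 and 38.7 against at most 18.3, and the highest red blood cell sums, 333 and 439 against at most 107.9. What part these markers had in the lipid gene values was not tested.

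Promoter sequence was set beside these results for genes of the droplet and synthesis branches. The windows below are the bases before the annotated start from RefSeq (GRCm38.p6), given 5′ to 3′ on the strand of the gene and cut where they would enter an annotated transcript. They are shown because Plin4 and Plin5 are adjacent genes that both stepped up in adults and Acly stepped up at both stages. Capitals mark any match to AGGTCA (the half-site of many nuclear receptors), GGGCGG (GC box), CCAAT or CACGTG (E-box), searched on both strands, and no match in the printed windows overlapped another.
Plin4, chr17:56109949-56110032, minus strand: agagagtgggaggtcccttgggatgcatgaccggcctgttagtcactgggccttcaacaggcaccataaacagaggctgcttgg
Plin5, chr17:56117607-56117798, minus strand: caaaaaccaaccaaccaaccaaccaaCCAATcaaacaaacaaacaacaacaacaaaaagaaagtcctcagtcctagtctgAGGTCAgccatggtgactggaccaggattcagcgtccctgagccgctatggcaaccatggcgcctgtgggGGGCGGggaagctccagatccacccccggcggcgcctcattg
Acly, chr11:100528001-100528250, minus strand: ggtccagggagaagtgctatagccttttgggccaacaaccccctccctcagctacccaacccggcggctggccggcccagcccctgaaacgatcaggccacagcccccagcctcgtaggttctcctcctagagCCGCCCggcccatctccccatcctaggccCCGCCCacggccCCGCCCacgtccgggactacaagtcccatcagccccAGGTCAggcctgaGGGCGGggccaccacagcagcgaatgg
The Plin4 window of 84 bases held none of the 4 motifs, the Plin5 window of 192 bases held 1 nuclear receptor half-site, 1 GC box and 1 CCAAT, and the Acly window of 250 bases held 1 nuclear receptor half-site and 4 GC boxes. Among the 39 listed genes with a RefSeq window of 250 bases, 11 (28.2%) held the half-site, 25 (64.1%) the GC box, 18 (46.2%) CCAAT and 3 (7.69%) the E-box. These shares were counted over the full 250 bases, also where a printed window is shorter, so Plin2 and Plin4 count among the genes with CCAAT although their printed windows do not show it. Over the 27025 genes with such a window, non-coding genes included, the shares were 15.8%, 35.4%, 37.5% and 6.86%. The listed genes with the half-site were Acadm, Acadvl, Acly, Cd36, Cpt1a, Cpt1c, Echs1, Elovl1, Elovl6, Plin2 and Plin5, which took different courses over the stages.

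The second comparison asked what differed between ovulated C2 and prophase I C1 cells of adults. After ovulation, carnitine palmitoyltransferase Cpt1a and medium-chain dehydrogenase Acadm were higher and the scavenger receptor Cd36 was lower. The fatty acid binding protein Fabp3 was much lower. The droplet genes split, with Plin2, Plin3 and the lipase Pnpla2 higher and Plin4 and Dgat2 lower. Of the 46 genes 23 were called (50%), 13 higher and 10 lower, against 47.6% of all valid probes, 25.4% higher and 22.3% lower. The share called is near the background, so the count is no result about lipid genes. Arrays of C1 and C2 did not overlap for 23 of the 46, against 43.9% of all valid probes. The median difference was 0.01 over the 46 genes and 0.02 over all valid probes. The split was 15 higher and 6 lower with the median over all gene probes as the scale or with the authors' table, and 5 higher and 8 lower with spike-in scaling. Under these scalings the median over all valid probes was 0.33, 0.33 and -0.13. With spike-in scaling the calls of Cpt2, Acadl, Acaa1a, Etfa, Acly, Scd2, Acsl1, Acsl3, Plin3 and Pnpla2 were lost.

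**Figure D3:**
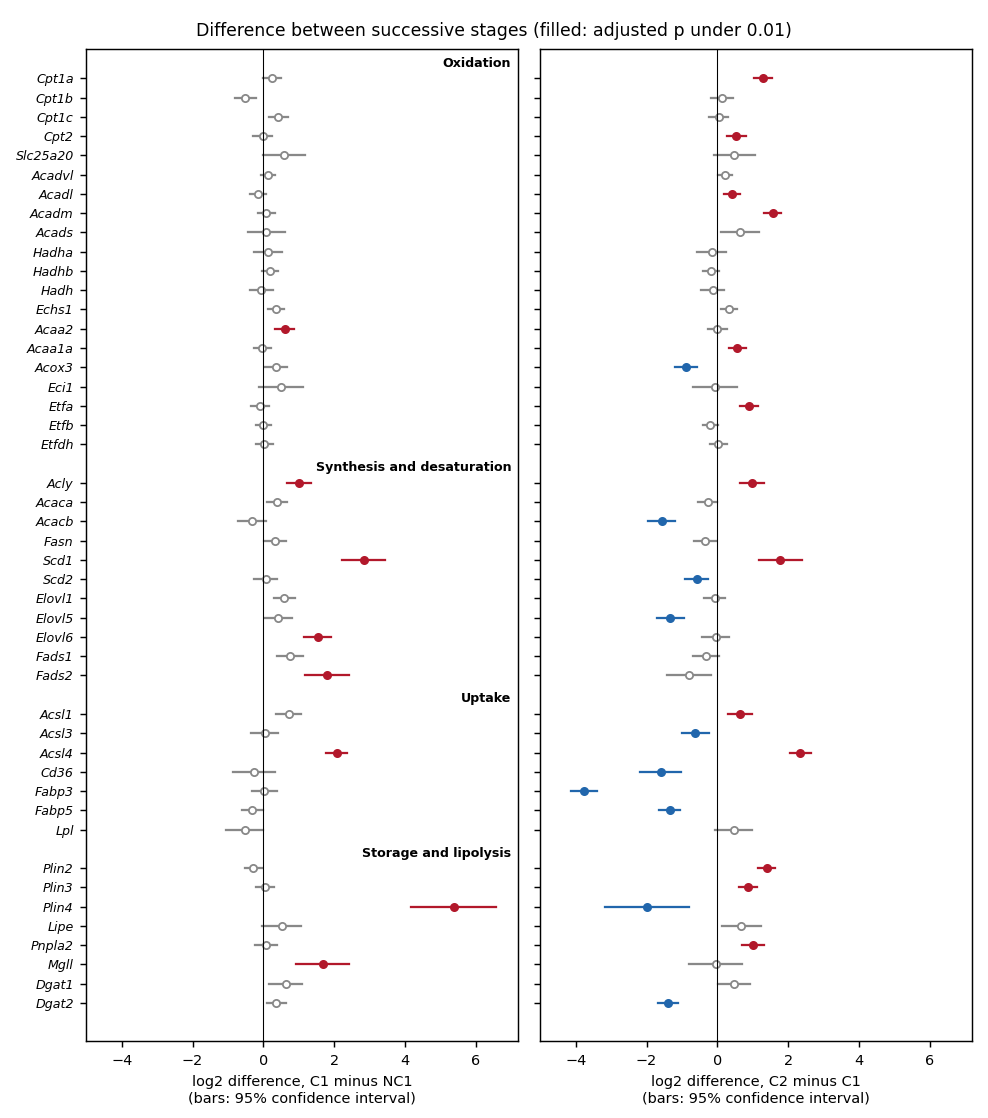
Log2 difference of the 46 fitted genes for C1 minus NC1 (left) and C2 minus C1 (right), by branch, with 95% confidence intervals as bars and filled points where the limma adjusted p was under 0.01 (red higher, blue lower). The 8 filled points on the left all lie above 0, and the 23 on the right lie on both sides, from -3.77 for Fabp3 to 2.34 for Acsl4.

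In the oxidation branch, 6 of 20 genes were higher at C2, 1 was lower and the median difference was 0.18. Cpt1a, whose product makes acylcarnitine at the outer mitochondrial membrane and controls entry, was at 1.56, 1.47, 1.37, 1.40 and 1.67 at NC1, 1.74, 1.74, 1.52, 1.69 and 1.95 at C1, and 2.61, 2.96, 3.23, 3.20 and 3.08 at C2. All C2 arrays were above all others. The difference was 1.28 (SE 0.12, adjusted p = 1.53e-07), or 2.44-fold, and a second probe gave 1.35. The muscle and brain forms did not pass, with 0.14 (SE 0.15, adjusted p = 0.443) for Cpt1b and 0.04 (SE 0.13, adjusted p = 0.838) for Cpt1c. Cpt2, which reverses the reaction inside mitochondria, had 0.53 (SE 0.13, adjusted p = 0.00204), and the carnitine-acylcarnitine carrier Slc25a20 had 0.47 (SE 0.27, adjusted p = 0.151).

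Acadm, the dehydrogenase of medium chains, was at 2.80, 2.78, 2.64, 2.59 and 2.75 at NC1, 2.77, 2.87, 2.80, 2.67 and 2.85 at C1, and 4.25, 4.18, 4.09, 4.66 and 4.60 at C2. Juvenile and adult prophase I arrays were level, and every C2 array stood above them by more than 1 on the log2 scale. The difference was 1.56 (SE 0.11, adjusted p = 6.85e-09), or 2.95-fold. Values for other chain lengths were smaller. The long-chain enzyme Acadl had 0.40 (SE 0.11, adjusted p = 0.00356), the very-long-chain enzyme Acadvl 0.22 (SE 0.09, adjusted p = 0.0495) and the short-chain enzyme Acads 0.64 (SE 0.25, adjusted p = 0.0362). The Acadl call was lost without C1 replicate 1 or C2 replicate 4 or 5.

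The bases before the Acadm start and before the start of the droplet gene Plin2, which moved by a like amount in the same step, each held 1 nuclear receptor half-site, which reads TGACCT on the printed strand.
Acadm, chr3:153944644-153944893, minus strand: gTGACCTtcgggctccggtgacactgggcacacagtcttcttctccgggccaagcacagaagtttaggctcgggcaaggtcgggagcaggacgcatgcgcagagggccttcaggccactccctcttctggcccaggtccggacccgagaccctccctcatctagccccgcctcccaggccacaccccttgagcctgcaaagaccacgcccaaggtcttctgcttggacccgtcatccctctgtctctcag
Plin2, chr4:86670218-86670309, minus strand: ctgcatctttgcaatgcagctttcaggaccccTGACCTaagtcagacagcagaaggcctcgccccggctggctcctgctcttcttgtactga
Capitals mark the motif in both windows, of 250 and 92 bases. A match is a description of the letters only.

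Electrons from these dehydrogenases pass through the flavoprotein Etfa and Etfb to Etfdh. Etfa had 0.88 (SE 0.12, adjusted p = 8.64e-06), Etfb -0.20 (SE 0.10, adjusted p = 0.0879) and Etfdh 0.03 (SE 0.11, adjusted p = 0.853), so only the first of the 3 was called, and a second Etfa probe gave 0.84 with an adjusted p of 0.0618. The later steps of the cycle showed small differences. The trifunctional protein subunits Hadha and Hadhb had -0.17 (SE 0.19, adjusted p = 0.471) and -0.19 (SE 0.11, adjusted p = 0.133), Hadh -0.13 (SE 0.15, adjusted p = 0.492), and the hydratase Echs1 0.34 (SE 0.11, adjusted p = 0.0121). The enoyl-CoA isomerase Eci1 had -0.06 (SE 0.29, adjusted p = 0.875). Hadha, Hadhb, Hadh, Etfdh, Etfb and Eci1 passed in none of the 3 comparisons.

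Peroxisomal members diverged. The thiolase Acaa1a had 0.57 (SE 0.11, adjusted p = 0.000411), whereas the branched-chain acyl-CoA oxidase Acox3, at -0.19, -0.21, -0.57, -0.41 and -0.50 at NC1, 0.22, 0.34, -0.58, -0.05 and -0.08 at C1, and -1.06, -1.03, -0.93, -0.72 and -0.88 at C2, was lower at C2 than at C1 on all arrays. Its difference was -0.89 (SE 0.15, adjusted p = 7.5e-05), and a second probe gave -0.44 with an adjusted p of 0.00601. The Acox3 call was lost with the median over all gene probes as the scale and with the authors' table.

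In the synthesis branch, 2 of 11 genes were higher at C2, Scd1 and Acly as given above, and 3 were lower, with a median of -0.33. Acacb makes the malonyl-CoA at mitochondria that inhibits Cpt1. It was at 2.74, 2.63, 3.49, 3.48 and 3.01 at NC1, 2.53, 2.81, 2.68, 2.73 and 3.01 at C1, and 1.43, 1.52, 1.02, 0.77 and 1.13 at C2. The C2 arrays lay apart below both prophase I stages, which overlapped. The difference was -1.58 (SE 0.18, adjusted p = 1.47e-06), or 2.99-fold, and a second probe gave -1.19. The cytosolic form Acaca did not pass, as given above.

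Elovl5, which elongates polyunsaturated fatty acids, was at 3.26, 3.01, 3.81, 3.70 and 3.25 at NC1, 4.18, 3.96, 3.18, 3.96 and 3.86 at C1, and 2.64, 2.39, 2.23, 2.65 and 2.58 at C2. All C2 arrays were below all others. The difference was -1.33 (SE 0.18, adjusted p = 1.03e-05), while the elongases Elovl1 and Elovl6 had -0.07 (SE 0.14, adjusted p = 0.685) and, as above, -0.05. Scd2 fell, a call lost without C1 replicate 2 or C2 replicate 2. It was also lost with the median over all gene probes as the scale, spike-in scaling, the authors' table and no filter on dim probes. Between C2 and NC1, the Scd2 call was lost in 20 of 28 alternatives, with adjusted p up to 0.229. Fads2 had -0.80 and was not called, but it was called without C1 replicate 3, with -1.14 (adjusted p = 4.63e-05). Fads1 had -0.33 (SE 0.17, adjusted p = 0.114).

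The uptake branch had the largest fall of the list. Of its 7 genes 2 were higher and 4 lower at C2, with a median of -0.62. Fabp3, which binds fatty acids in the cytosol, was at 0.99, 0.81, 1.42, 1.18 and 1.17 at NC1, 1.09, 0.51, 1.47, 1.18 and 1.43 at C1, and -2.33, -2.67, -2.65, -2.67 and -2.84 at C2. Juvenile and adult prophase I levels overlapped, and all 5 C2 arrays stood far below. The difference was -3.77 (SE 0.17, adjusted p = 2.75e-11), a 13.6-fold fall, a second probe gave -4.30, and with normexp background correction it was -3.16. Its relative Fabp5 had -1.35 (SE 0.14, adjusted p = 3.22e-07), and its arrays were separate at each stage, at 4.01, 4.12, 4.33, 4.03 and 4.18 at NC1, 3.86, 3.95, 3.86, 3.66 and 3.79 at C1, and 2.69, 2.09, 2.23, 2.90 and 2.48 at C2. The first of its steps was -0.31 (SE 0.14, adjusted p = 0.256) and did not pass.

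Cd36, a membrane receptor that brings fatty acids and lipoproteins into cells, was at 0.39, 0.06, 0.72, 0.57 and 0.76 at NC1, -0.03, 0.86, -0.02, 0.51 and -0.17 at C1, and -1.38, -1.86, -2.15, -0.61 and -0.82 at C2. The C2 arrays did not overlap with the others, although they spread over 1.5 units. The difference was -1.60 (SE 0.27, adjusted p = 9.53e-05). Cd36 also marks microvascular endothelium. The sum of 6 endothelial markers was 0.708 to 0.961, 0.796 to 1.07 and 0.998 to 1.76 over the 3 stages. Its members differed in direction between C1 and C2. By limma, Cdh5 was called higher at C2 (adjusted p = 0.000124) and Gpihbp1 lower (adjusted p = 0.000255). Kdr was not called (adjusted p = 0.584). Pecam1, Tek and Tie1 had no valid probe, and their means were lower at C2. The part of endothelial cells was not tested. Lipoprotein lipase, Lpl, had 0.46 (SE 0.25, adjusted p = 0.117) and was called in none of the 3 comparisons.

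The rising members of the branch were both acyl-CoA synthetases. Acsl4, given above, had the largest rise of the list. Acsl1 was at -0.04, 0.03, -0.05, -0.53 and -0.14 at NC1, 1.05, 0.26, 0.59, 0.14 and 0.77 at C1, and 1.35, 1.27, 1.20, 1.29 and 0.86 at C2. C1 and C2 arrays overlapped a little, since C1 replicate 1 was above C2 replicate 5. The difference was 0.63 (SE 0.17, adjusted p = 0.0034), a second probe gave 0.44 with an adjusted p of 0.146, and the call was lost without C1 replicate 2 or 4. Acsl3 fell by 0.62 (adjusted p = 0.00637), a call lost in 13 of 28 alternatives, with adjusted p up to 0.25, including the omission of C1 replicate 2, 3, 4 or 5 or C2 replicate 1, 2, 3 or 5.

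**Figure D4:**
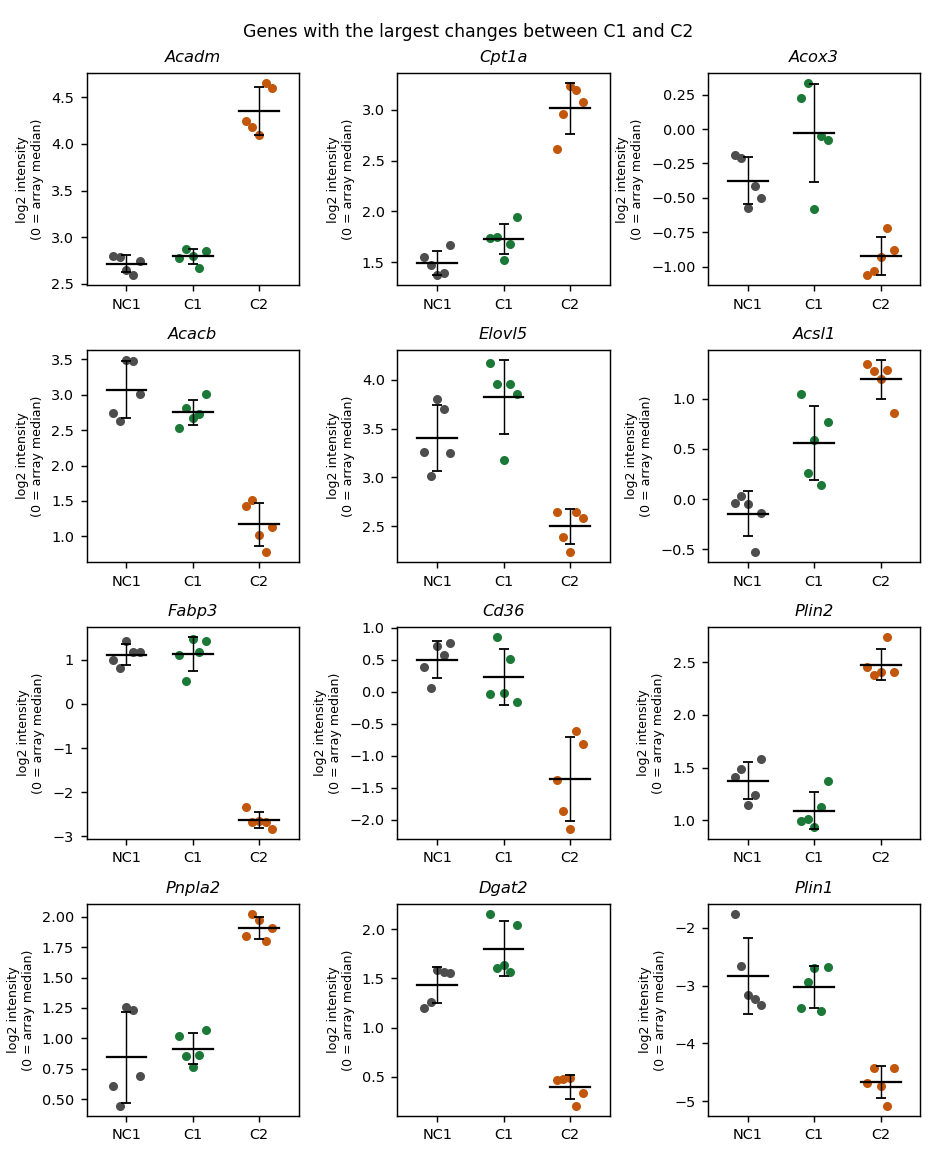
Log2 intensity (0 = array median) of the genes with the largest called changes from C1 to C2 in each branch that are not in the plot of the adult genes, and of Plin1, in each of the 5 arrays per stage, where points are arrays, horizontal lines the means and error bars 1 SD. For all genes shown other than Acsl1, the C2 points lie apart from the C1 points, above for Acadm, Cpt1a, Plin2 and Pnpla2 and below for the rest.

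The perilipins of the storage branch went separate ways after ovulation. Plin2, the perilipin of most cells outside fat, was at 1.42, 1.49, 1.15, 1.24 and 1.58 at NC1, 1.00, 1.02, 0.94, 1.12 and 1.38 at C1, and 2.45, 2.38, 2.41, 2.74 and 2.41 at C2. All C2 arrays were above all others, and the difference was 1.39 (SE 0.12, adjusted p = 3.29e-08), or 2.62-fold. Plin3, which binds nascent droplets, had 0.86 (SE 0.12, adjusted p = 8.57e-06). Plin4 fell from its adult level, as given above, and Plin5 kept within its adult range.

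Plin1, the perilipin of white fat cells, was well above background in 5 of 5 arrays at NC1, 5 at C1 and 2 at C2, and was outside the fit. Its level was -1.76, -2.66, -3.17, -3.23 and -3.34 at NC1, -3.39, -2.93, -2.69, -3.44 and -2.68 at C1, and -4.68, -4.42, -4.74, -5.08 and -4.43 at C2. All C2 arrays were below all C1 arrays, and NC1 replicate 1 was the highest of all. In the fit over probes present in at least 1 stage, Plin1 entered only through NC1 and C1, where it was higher. Its C2 minus C1 of -1.64 (SE 0.27) is therefore a description only. The theca and stroma sum fell in the same step, as given above, and its part was not tested.

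Among lipases, Pnpla2 (adipose triglyceride lipase) starts triacylglycerol breakdown. Its level was 0.60, 0.44, 1.26, 1.23 and 0.69 at NC1, 1.02, 0.86, 0.76, 0.86 and 1.07 at C1, and 1.84, 2.03, 1.97, 1.80 and 1.91 at C2. All C2 arrays were above all others, by 1.00 (SE 0.15, adjusted p = 1.94e-05) over C1. Hormone-sensitive lipase, Lipe, had 0.67 (SE 0.26, adjusted p = 0.034), and Mgll -0.05 (SE 0.35, adjusted p = 0.911). Dgat1 and Dgat2 catalyse the last step of triacylglycerol synthesis. Dgat2 was at 1.20, 1.26, 1.58, 1.56 and 1.56 at NC1, 2.16, 1.60, 1.64, 1.56 and 2.04 at C1, and 0.47, 0.47, 0.49, 0.20 and 0.34 at C2, with all C2 arrays below all others and a difference of -1.41 (SE 0.13, adjusted p = 1.42e-07). Dgat1 had 0.47 (SE 0.22, adjusted p = 0.0703).

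Across the whole span from NC1 to C2, 33 of 46 genes (71.7%) were called, 24 higher and 9 lower, against 51.5% of all valid probes, 26.5% higher and 24.9% lower. With spike-in scaling 19 were called, 14 higher and 5 lower. The median difference was 0.48 over the 46 genes and -0.01 over all valid probes. Arrays did not overlap for 29 of the 46 genes, against 48.9% of all valid probes. This comparison shares its arrays with the other 2 and adds no independent evidence. All 8 fitted storage genes were called, 7 higher and only Dgat2 lower, with a median of 1.1. Of the 20 oxidation genes 10 were higher and Acox3 alone was lower, of 11 synthesis genes 5 were higher and 3 lower, and of 7 uptake genes 2 were higher and 4 lower. The storage genes Dgat1 and Lipe passed neither single step, and over the whole span had 1.1 (SE 0.22, adjusted p = 0.000306) and 1.19 (SE 0.26, adjusted p = 0.000728). The same was true of the oxidation genes Echs1, Slc25a20, Acadvl and Cpt1c, with 0.69, 1.05, 0.34 and 0.46, and of Elovl1, with 0.52. Of these, Slc25a20, Acadvl, Cpt1c and Elovl1 lost their call without single arrays (NC1 replicate 3 or C2 replicate 2 for Slc25a20, NC1 replicate 1 or 2 or C2 replicate 2 for Acadvl, NC1 replicate 2, 3 or 4 or C2 replicate 1, 2 or 3 for Cpt1c, and NC1 replicate 1 or 2 or C2 replicate 1 or 2 for Elovl1). Acadvl and Elovl1 also lost it with the median over all gene probes as the scale, quantile normalization, spike-in scaling, the authors' table and no filter on dim probes, Cpt1c with spike-in scaling, normexp and no filter, Slc25a20 with no filter, Echs1 with spike-in scaling, and Lipe with normexp, where its difference was 0.59.

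All 4 slides held the 3 stages. Within slides, all 8 genes called for C1 against NC1 differed in the same direction on each of the 4 slides, as did 22 of the 23 called for C2 against C1, with Plin4 the exception.

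Other genes of lipid metabolism were read from a second list of 116, of which 87 had a valid probe. Between NC1 and C1, 5 of the 87 (5.75%) were called, against 2.52% of all valid probes, all higher (1.75% of all valid probes) and all in the list of synthesis and elongation. These were the NADPH-producing malic enzyme Me1, with 1.74 (SE 0.14, adjusted p = 1.08e-06), the desaturase family member Fads3, with 1.97 (SE 0.19, adjusted p = 5.91e-06), the elongase Elovl7, with 1.33 (SE 0.24, adjusted p = 0.00307), and the acetyl-CoA synthetases Acss2, with 1.22 (SE 0.18, adjusted p = 0.00036) and Acss1, with 1.12 (SE 0.18, adjusted p = 0.000812). None of 22 peroxisomal, auxiliary and ketone body genes, 12 uptake and activation genes, 17 storage and lipolysis genes or 20 regulators passed in this step. The regulator genes included Srebf1, the transcription factor of fatty acid synthesis, with 0.32 (SE 0.21, adjusted p = 0.519), Srebf2 with 0.66 (SE 0.16, adjusted p = 0.0198) and Pparg with -0.19 (SE 0.16, adjusted p = 0.619). The calls of Acss1 and Elovl7 were lost with the median over all gene probes as the scale and with the authors' table. That of Elovl7 was also lost with normexp background correction, with no filter on dim probes and without C1 replicate 1. Its difference was as low as 0.73 under the alternatives, and its probe was well above background in 4 of 5 arrays at NC1.

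Between C1 and C2, 49 of the 87 genes (56.3%) were called, 29 higher and 20 lower, against 47.6% of all valid probes, 25.4% higher and 22.3% lower. The largest rises were those of Elovl7, at -3.56, -3.31, -3.66, -4.46 and -3.70 at NC1, -2.24, -1.98, -2.76, -2.57 and -2.50 at C1, and 0.82, 1.19, 1.08, -0.14 and 0.68 at C2, and of the phosphatidate phosphatase Lpin3, at -0.58, -0.51, -0.86, -0.78 and -0.38 at NC1, -0.69, -0.27, -0.20, -0.74 and -0.25 at C1, and 2.27, 2.17, 2.07, 1.92 and 1.76 at C2. Both rose on all C2 arrays above all others, by 3.13 (SE 0.24, adjusted p = 1.59e-08) and 2.47 (SE 0.14, adjusted p = 4.12e-10). The largest fall was that of the elongase Elovl2, at -0.21, -0.63, 0.71, 0.26 and -0.25 at NC1, -0.41, -0.98, 0.07, 0.23 and -0.37 at C1, and -4.44, -3.80, -4.17, -3.81 and -3.70 at C2. Its C2 arrays lay below all others, with a difference of -3.69 (SE 0.25, adjusted p = 3.3e-09). At C2 its probe was well above background in 4 of 5 arrays, and under the alternatives the difference was as small as -2.64. By list, 6 were higher and 4 lower among 22 peroxisomal, auxiliary and ketone body genes, 4 and 3 among 16 synthesis and elongation genes, 5 and 3 among 12 uptake and activation genes, 5 and 5 among 17 storage and lipolysis genes, and 9 and 5 among 20 regulators.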

How the data were processed

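RNA of 15 pools was labelled with Cy3 and hybridised to 1-colour Agilent oligonucleotide arrays. The authors deposited the scanner output, in which each spot has a background-subtracted linear intensity with no scaling between arrays (Feature Extraction 10.7.1.1 per the file headers, 10.5.1.1 per the labels), and a table of log2 values of 20855 probes scaled to the array median, used here only as an alternative. Here, control and outlier spots were left out, spots of a probe were averaged, and the array median over the 17322 valid probes was subtracted from the log2 intensity. Valid probes had the scanner's well-above-background flag on 80% or more of a stage's arrays, for all 3 stages, after the methods of the study. These had 20 missing values on 19 probes. Stages were compared with limma 3.58.1 in R 4.3.3, in 1 model over all arrays, two-sided, with the Benjamini-Hochberg adjustment at 0.01. Each gene was represented by its valid probe of highest mean. The fit was tested on simulated data.

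Values in every array are given for genes called between NC1 and C1, for the called genes with the 2 largest changes in each direction of each branch between C1 and C2, and, added after their values were seen, for Plin1 and Plin5. They are also given for Fabp5, which this rule did not name. Of the second lipid gene list, genes called in the first step and the 2 largest called changes in each direction of the second step are named, other than 1 gene that is not reported here. Srebf1, Srebf2 and Pparg were added after their values were seen. The gene lists and tests were chosen with earlier results of these data known. Probes were named by the authors' table or by accession through RefSeq (26055 probes matched). Per the file headers the arrays were annotated on mm9, and promoter windows were read from RefSeq GRCm38.p6. The number of arrays and signal over background limit the precision. Nothing states how the pools of a stage were divided beyond separate groups of mice, so p-values measure the spread between pools. The alternatives covered scaling, background correction (normexp, offset 50, on median spot signals in place of the planned mean signals), the filter on dim probes, the threshold, the probes of a gene, the stages fitted, slide, replicate number and the omission of each array.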

Additional observations from a re-analysis of the deposited data

Results flagged for a closer look

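In 7 of the 144 groups of 5 arrays checked, 1 array stood apart from the other 4 by more than Dixon's critical value of 0.71 for its gap over the range, where chance gives about 1 in 20. For Scd1, C1 replicate 3 was -2.11 against -0.81 to -0.50. For Eci1, NC1 replicate 4 was 0.22 against 1.70 to 2.20, and for Etfa, NC1 replicate 1 was 2.55 against 2.99 to 3.13. C2 replicate 1 stood high for Hadhb, at 2.80 against 2.49 to 2.56, and for Etfb, at 4.27 against 4.01 to 4.07. For Plin2, C2 replicate 4 was 2.74 against 2.38 to 2.45. For Plin3, C1 replicate 5 was 2.95 against 2.60 to 2.65.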

How the results depend on the processing

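Of the 64 calls of single genes over the 3 comparisons, none changed direction in 1920 values under 30 alternatives, and 212 of these values no longer passed the threshold. Leaving aside the alternatives that set another threshold, called under each of the remaining 28 were 5 of 8 genes for C1 against NC1 (Scd1, Elovl6, Fads2, Acsl4 and Plin4), 11 of 23 for C2 against C1 and 17 of 33 for C2 against NC1. The number called between NC1 and C1 was 8, and 5 with the median over all gene probes as the scale and with the authors' table. With quantile normalization 8 were higher and 1, Cpt1b, lower. For C2 against C1 the number was 23, and 13 with spike-in scaling and 12 with a minimum of 2-fold. For C2 against NC1 it was 33, and 19 under both of these, and for the F-test it was 32, and 21 and 20. The cause was not tested, other than that the minimum of 2-fold removes small changes by construction. Leaving out each array in turn gave 6 to 9, 19 to 24, 25 to 33 and 28 to 32 genes for the 4 tests. With the replicate number as a block the counts were 8, 24, 32 and 32, and the calls of Fads2 (C2 against C1) and Fads1 (C1 against NC1) were added while those of Acaa2 (C1 against NC1) and Scd2 (C2 against NC1) were among those lost. The labels give replicate numbers only and do not state a pairing. Same-numbered arrays of different stages had correlations of -0.24 to 0.35 in their deviations from the stage means (median 0.00). For differently numbered arrays these were -0.40 to 0.44 (median 0.04). Such correlations cannot decide whether the numbers pair the samples. Slide as a fixed block, added after seeing the data, gave 6, 22, 32 and 32. The F-test was not run with only the 2 stages compared. Signal over background limits Scd1, Plin5 and the second Mgll probe at NC1, Lipe at C1 and Plin1 at C2. Of the second lipid gene list it limits Elovl7 at NC1 and Elovl2 at C2, among others.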
